A study of Mus musculus with 2 samples.

Results

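The ureter is a muscular tube that carries urine from the kidney to the bladder. Its lumen is lined by the urothelium, a stratified epithelium of basal, intermediate and superficial cells. Around it lie the lamina propria, a layer of loose connective tissue, the smooth muscle coat that drives peristalsis, and the fibrous adventitia. The mesenchymal layers descend from progenitors that express the T-box factor TBX18, and SHH and WNT ligands from the epithelium act on them together with BMP4 and retinoic acid made in the mesenchyme.

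To describe which genes such tissue expresses in culture before any pathway is inhibited, the solvent-treated channel of each of 2 two-colour Agilent arrays was read on its own. The ureters were taken from wildtype NMRI mice at postnatal day 0 and cultured for 18 h with the solvent DMF at 1 in 1000. Replicate 1 was a pool of female ureters labelled with AlexaFluor555 (green), and replicate 2 a pool of male ureters labelled with AlexaFluor647 (red). The other channel of each array held ureters of the same sex kept in 10 µM Cyclopamine, a SMO inhibitor, although a source name in the labels gives IWP-2; that channel was not analysed here. Each pool combined several ureters, so the spread between animals was not measured, and pool, sex, dye and array cannot be told apart. Of 39429 probes, 25688 (65.15%) were well above background in at least 0.5 of their spots on both arrays and counted as measured. They stood for 15895 of 22596 named genes, so that 70.3% of all genes on the array were measured.

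Levels are given as the processed intensity and as the percentile rank of the probe among the 25688 measured probes of the same array, with 100 for the brightest. A gene was represented by its brightest measured probe. The median measured intensity was 1408 on replicate 1 and 331 on replicate 2, so intensities were not on a common scale and the arrays were set side by side by rank. The ranks of the pools were close. Spearman's rho across the measured probes, which share arrays and are not independent, was 0.984, and the median difference between the arrays was 3.13 percentile points, with 94.8% of probes within 10 points. The spread between different probes of the same gene was larger. In the 5018 genes with more than 1 measured probe, the median range from the dimmest to the brightest probe was 19.8 points (quartiles 7.74 and 38.0). A rank therefore orders probes, and genes whose ranks differ by less than about 20 points are not ordered by these data. A wider gap can also fall within the range between probes of 1 gene, whose upper quartile was 38.0 points. Words such as brightest, led or headed describe the order of probe ranks only. H19, a maternally expressed fetal RNA, had 1 probe at percentile ranks of 99.4 and 99.6 and another at 6.64 and 2.81.

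**Figure D1:**
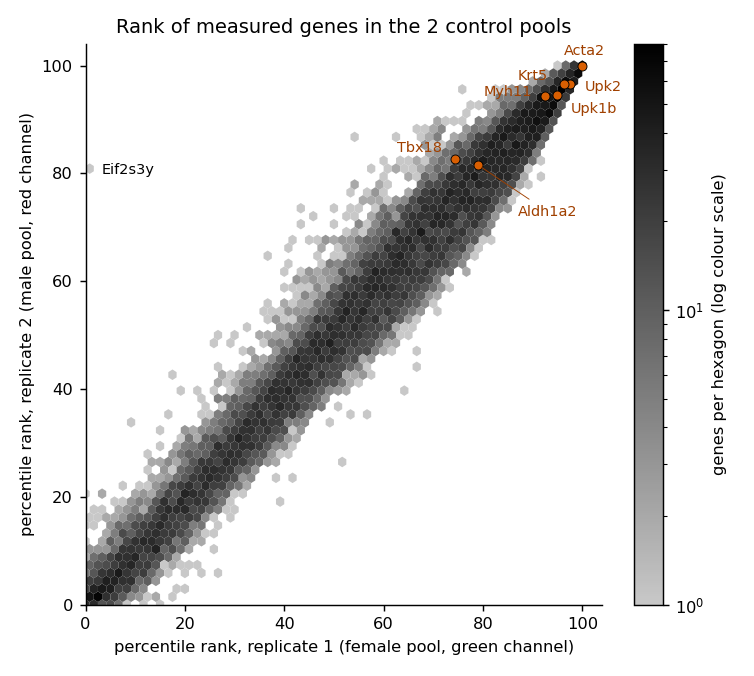
Percentile rank of each measured gene in the control channel of replicate 1 (horizontal axis) and of replicate 2 (vertical axis), with darker hexagons holding more genes on a log colour scale. Orange points are the 7 ureter markers, all at 74.4 or above on both arrays, with Tbx18 farthest apart at 74.4 and 82.6, and the Y-linked gene Eif2s3y lies at 0.346 on replicate 1 and 80.5 on replicate 2.

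**Figure D2:**
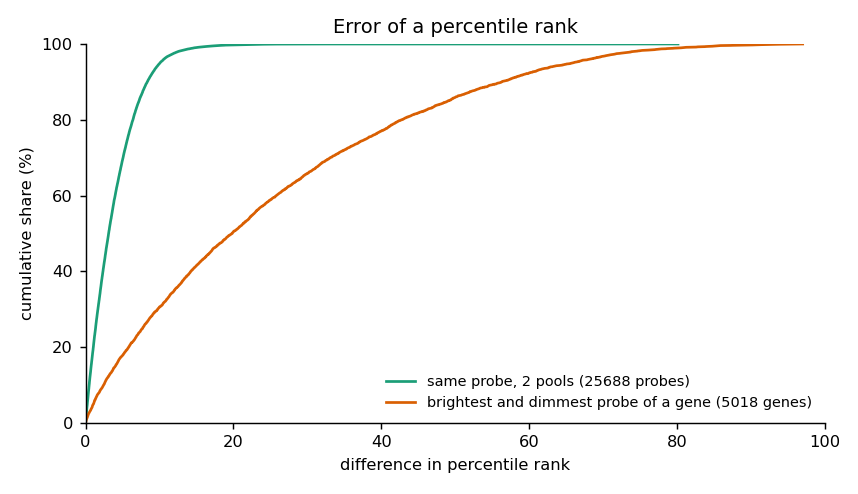
Cumulative share (vertical axis, %) of differences in percentile rank (horizontal axis) between the 2 pools for the same probe (green, 25688 probes) and between the brightest and dimmest measured probe of a gene (orange, 5018 genes). The median is 3.13 points between pools and 19.8 points between probes.

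The labelled tissue was present by its markers. Acta2, the actin of smooth muscle, had intensities of 110827 and 41995 on replicates 1 and 2 and was the probe of rank 3 and rank 8 among all measured probes. Upk2, a uroplakin of the apical urothelial membrane, had intensities of 56482 and 11052 (percentile ranks 97.5 and 96.6). Krt5, the keratin of basal urothelial cells, had 45030 and 10998 (96.4 and 96.6). All 3 lay in the top decile of both pools. Upk1b, another uroplakin, had intensities of 34241 and 7042 (94.9 and 94.6). Myh11, the smooth muscle myosin heavy chain, had 24926 and 6741 (92.5 and 94.3). The remaining markers lay below the top decile. Aldh1a2, the retinoic acid producing enzyme of the lamina propria, had intensities of 8415 and 1881 (79.1 and 81.5), and Tbx18 had 6403 and 2025 (74.4 and 82.6). The other probe of Krt5 had percentile ranks of 80.4 and 78.0, and every other marker had 1 probe. Of 5 sex chromosome genes, 4 were above background on the array of the labelled sex alone. Xist, the RNA of the inactive X chromosome, was above background on replicate 1 only, and Ddx3y, Uty and Kdm5d of the Y chromosome on replicate 2 only. The Y-linked gene Eif2s3y had an intensity of 1764 on replicate 2 and of 18.9 on replicate 1, where 75% of its spots were well above background.

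Promoter windows of 4 of these markers are shown because measured and unmeasured genes differed in their promoter sequence. Windows run from 250 bases before the gene start to 50 after it, come from RefSeq (build GRCm38.p6) and were present for 17766 of the genes. CG dinucleotides, which are dense in CpG islands, are in capitals.
Acta2, chr19:34255324-34255623, minus strand: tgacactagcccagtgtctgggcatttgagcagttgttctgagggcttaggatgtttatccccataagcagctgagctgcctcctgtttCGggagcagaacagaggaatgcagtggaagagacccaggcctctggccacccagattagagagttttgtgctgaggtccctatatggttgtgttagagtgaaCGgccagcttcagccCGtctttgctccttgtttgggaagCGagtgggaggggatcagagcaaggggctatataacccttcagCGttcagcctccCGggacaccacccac
Krt5, chr15:101712856-101713155, minus strand: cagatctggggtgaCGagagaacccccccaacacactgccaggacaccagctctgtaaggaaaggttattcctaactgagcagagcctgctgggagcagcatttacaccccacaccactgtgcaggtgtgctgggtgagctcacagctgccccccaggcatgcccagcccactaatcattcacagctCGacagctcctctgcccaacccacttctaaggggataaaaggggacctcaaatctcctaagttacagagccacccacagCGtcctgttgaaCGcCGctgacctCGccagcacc
Tbx18, chr9:87731211-87731510, minus strand: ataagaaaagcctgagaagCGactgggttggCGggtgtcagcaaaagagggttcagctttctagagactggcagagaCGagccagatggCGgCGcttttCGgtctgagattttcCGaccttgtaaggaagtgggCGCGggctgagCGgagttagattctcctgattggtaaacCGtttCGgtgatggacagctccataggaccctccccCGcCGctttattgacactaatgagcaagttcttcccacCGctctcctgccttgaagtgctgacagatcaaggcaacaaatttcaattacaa
Aldh1a2, chr9:71215539-71215838, plus strand: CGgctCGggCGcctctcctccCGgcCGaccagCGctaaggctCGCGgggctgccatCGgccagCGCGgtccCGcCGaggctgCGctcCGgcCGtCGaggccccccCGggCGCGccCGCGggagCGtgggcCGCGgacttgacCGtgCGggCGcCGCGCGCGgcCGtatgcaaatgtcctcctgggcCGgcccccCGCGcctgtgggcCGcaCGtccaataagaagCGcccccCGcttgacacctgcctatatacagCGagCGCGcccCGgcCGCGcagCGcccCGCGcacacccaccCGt

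The window of Aldh1a2 held 50 CG dinucleotides, and 99.1% of genes held as many or fewer, against 15 for Tbx18 and 6 each for Acta2 and Krt5. Across genes, the median was 19 per window among the 12497 measured genes and 3 among the 5269 genes not measured. Olfactory and vomeronasal receptor genes, of which 1278 of 1335 were not measured, had a median of 1 (1148 windows). The median of the unmeasured genes without this family was not computed. Among measured genes it rose from 7 in the dimmest decile of rank to 22 in deciles 8 and 9, and was 21 in the brightest. The lists differed. The smooth muscle contractile proteins had a median of 7 (9 windows), the urothelial keratins 6 (7 windows) and the uroplakins 2 (3 windows). The lamina propria genes had a median of 22 (6 windows), the urothelial transcription factors 22 (5 windows) and the smooth muscle regulators 30 (5 windows). The cell division genes had 24 (12 windows) and the ribosomal proteins 21 (60 windows).

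A TATA box, searched as TATAAA on the strand of the gene from 40 to 20 bases before its start, was found in 4.55% of the genes not measured and in 1.74% of those measured. By rank it was least frequent in the middle, at 0.655% in decile 5, with 4.36% in the lowest and 1.97% in the highest decile. A CArG box, the element bound by SRF in smooth muscle genes, was searched as CCWWWWWWGG with W for A or T, which covers both strands. This strict form was found in 1 of 9 windows of the smooth muscle contractile list (Myl9, 161 bases before the start). It was found in 1.47% of all windows. Sequences that differ from it by 1 base, such as ccctatatgg and ccttgtttgg in the Acta2 window, were not counted. The counts of both boxes are matches of letters within a short window.

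**Figure D3:**
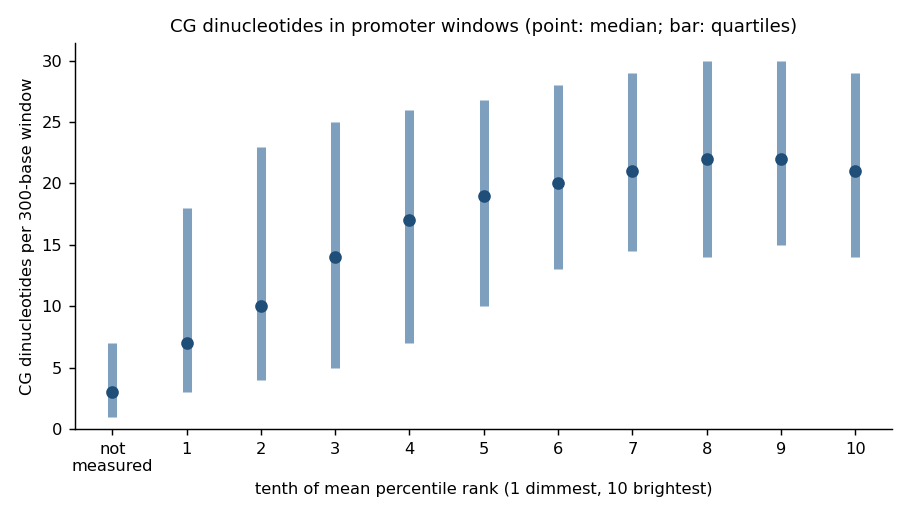
Number of CG dinucleotides per 300-base promoter window (vertical axis) for genes not measured and for measured genes by decile of mean percentile rank (horizontal axis, 1 dimmest, 10 brightest). Points are medians and bars quartiles; the median is 3 in genes not measured and 22 in deciles 8 and 9.

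The brightest genes encoded housekeeping and contractile proteins. The top decile of both arrays held 2227 probes and 1168 genes (5.17% of all genes); 780 of these probes had no gene name. Of the 30 genes with the highest ranks, 16 encoded ribosomal proteins, led by Rpl10 (intensities 108120 and 46476), Rpl41, Rps6 and Rplp2. The others included Tpt1, the cyclophilin Ppia, the ferritin heavy chain Fth1, the actins Acta2, Actb and Actg1, the myosin light chain Myl6 and the mitochondrially encoded CYTB and ND4. Sprr1a, a cornified envelope precursor of stratified epithelia, stood among them with intensities of 92569 and 31353. In addition, 3 pseudogenes (Gm5526, Gm5621 and Gm8210) reached the 30. A probe of a pseudogene can bind the transcript of its parent gene, so these names are uncertain. The same holds for the actin probes.

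Counts per list are to be read beside the shares over all genes, 70.3% measured and 5.17% in the top decile. A count near these shares does not set a list apart. By list, 77 of 81 ribosomal protein genes were in the top decile. Rps4l and Rpl39l, copies of common ribosomal genes, were measured below it. The respiratory chain subunits followed with 34 of 54, among them Cox6a1 (98.9 and 97.5), Cox8a and Uqcrh. Of 13 glycolysis and hypoxia genes, 6 were there, led by Gapdh (99.7 and 99.1) and Ldha (98.2 and 98.3). The hypoxia target Car9, the carbonic anhydrase of low oxygen, lay at 23.7 and 19.5. In the top decile the median genomic length of genes was 11929.5 bases against 22423 for the other measured genes. Over all measured genes, rank and length had a Spearman's rho of -0.00516. Protein-coding genes were measured in 74.5% of cases and long non-coding RNA genes in 32.2% (644 of 2002), with only 4 of the latter in the top decile.

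Genes of basal and superficial urothelium were measured. All 43 genes of the 4 epithelial lists were measured and 14 were in the top decile. Of the uroplakins, Upk3a had intensities of 90443 and 25932 (99.7 and 99.3) and Upk1a lay at 97.9 and 96.5, in the top decile with Upk2 and Upk1b. Upk3b, which is also a gene of mesothelium, lay at 80.2 and 74.0. Keratins of simple epithelia, Krt8 (98.2 and 99.1), Krt18 (98.2 and 98.6) and Krt19 (98.0 and 97.4), led the keratin list. Krt7 and Krt20, the keratin of mature superficial cells, were in the top decile too, with Krt20 at 91.9 and 90.8. Basal Krt14 lay at 85.8 and 82.3, and Krt4 of squamous epithelia near the bottom at 7.05 and 8.54.

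Among urothelial transcription factors, Foxa1 (93.5 and 96.0) and Klf5 (90.5 and 90.9) were in the top decile. Pparg lay at 89.3 and 89.3, Gata3 at 88.9 and 91.6 and Grhl3 at 87.2 and 88.7, all factors of urothelial differentiation. Trp63, the regulator of basal cells, had 4 measured probes that ran from 79.5 and 86.0 down to 16.5 and 13.1, so its rank depended on the probe. Of the adhesion genes, Perp and Cldn4 were in the top decile, and Cdh1 lay at 88.8 and 91.3.

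The smooth muscle coat was prominent. Of 12 contractile protein genes, 7 were in the top decile. Besides Acta2, these were Myl9 (99.7 and 98.6), Tagln (99.2 and 98.3), Cnn1, Actg2, Smtn and Myh11. Ckm, the muscle creatine kinase of late smooth muscle differentiation in the ureter, had intensities of 5497 and 665 (71.3 and 62.6), and Lmod1, a leiomodin, lay at 38.5 and 39.9. Of the regulators, none of the 6 was in the top decile. Mrtfb lay at 77.5 and 86.7, Tshz3 at 71.5 and 82.8 and Srf at 65.2 and 67.1. Myocd, the coactivator that drives the contractile genes, had intensities of 1688 and 872, and its ranks of 49.2 and 67.9 differed between the pools by 18.7 points.

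Of the pacemaker and excitation genes, 8 of 9 were measured. Ano1, a calcium-activated chloride channel, was at 93.8 and 96.6 and Pdgfra at 91.5 and 96.3. Hcn2, a pacemaker channel, was at 77.3 and 81.6 and the receptor Kit at 65.7 and 72.6. The calcium release channel gene Ryr2 was not measured.

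Mesenchymal transcription factors and connective tissue genes were all measured. Tbx3 (93.1 and 93.7), Eya1 (91.6 and 96.9) and Foxf1 (90.7 and 91.6) were in the top decile of both pools. The other probe of Foxf1 lay at 55.8 and 54.9. Tcf21, a factor of fibroblast progenitors, lay at 92.2 and 87.3, and Gata6 at 87.1 and 92.1. Of 10 genes that the study assigned to the lamina propria, partly on these arrays, Ahr (93.3 and 96.7) and Foxf1 were in the top decile. Thy1, Bmp4 and Car3 were next. The other probe of Ahr lay at 48.4 and 62.1. Avpr1a, a vasopressin receptor, lay at 61.9 and 63.3. Of 11 fibroblast genes, 6 were in the top decile. Dcn, the proteoglycan decorin, had intensities of 85185 and 33574 (99.5 and 99.8), and the others were Lum, Gsn, Cd34, Fbln1 and Pdgfra.

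Matrix genes were bright. All 29 matrix genes were measured and 16 were in the top decile. Col3a1 (98.1 and 100), Col1a2 (97.4 and 99.9) and Col1a1 (96.9 and 99.6), the fibrillar collagens of loose connective tissue, led 13 collagens. Next to Dcn and Lum, Sparc lay at 99.2 and 99.5. The basement membrane genes Lamb1, Lamc1 and Nid1 and the fibronectin gene Fn1 were in the top decile as well. The gene of the elastic fibre protein elastin, Eln, had intensities of 2318 and 452 (54.8 and 55.5).

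**Figure D4:**
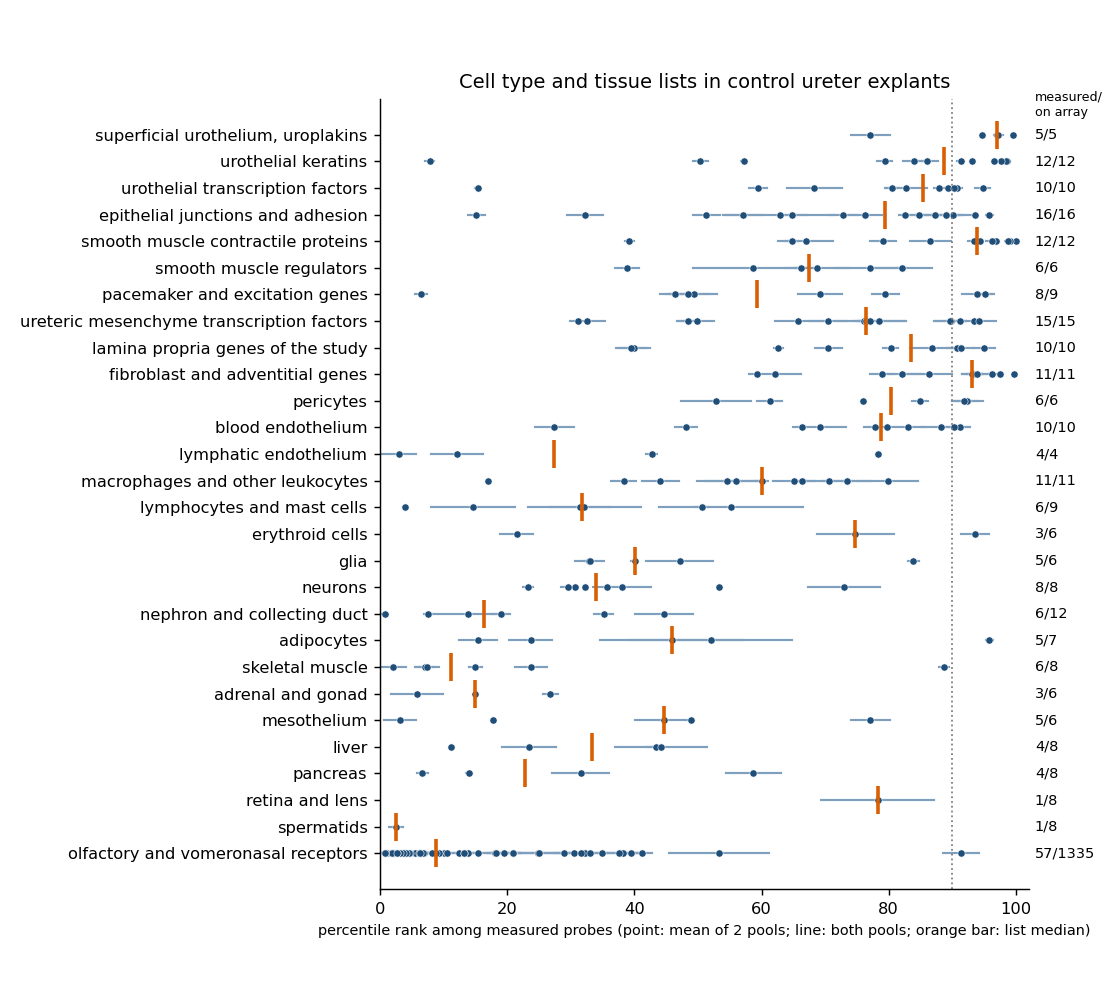
Percentile rank (horizontal axis) of the measured members of each cell type or tissue list (rows), with a point at the mean of the 2 pools, a line between them, an orange bar at the list median and a dotted line at 90. Numbers at the right give measured members over members on the array; the uroplakins have a median of 97.1 and the smooth muscle contractile proteins of 93.9, against 8.74 in the olfactory and vomeronasal receptors.

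Genes of vessels, blood and nerve were also read. In this bulk RNA fewer cells of a type and less RNA per cell cannot be told apart. All 10 blood endothelial genes were measured, with Cdh5 (89.6 and 92.7), Egfl7 (92.6 and 87.9) and Kdr (85.1 and 91.4) brightest. Pericyte genes were led by Pdgfrb (90.01 and 94.77) and Rgs5 (89.9 and 93.9), of which the former is also a gene of fibroblasts. Lymphatic genes ran from Pdpn (78.6 and 78.0), which other stroma also expresses, down to Prox1 (0.304 and 5.57), the factor that defines lymphatic endothelium.

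All 11 macrophage genes were measured, with a list median of 60.04 and Itgam (75.2 and 84.6) and Mrc1 (69.7 and 77.1) at the top. Other probes of Itgam lay at 17.8 and 22.7 and at 6.90 and 5.26. Of 9 lymphocyte and mast cell genes, 6 were measured (66.7%), near the 70.3% of all genes. The B cell gene Ms4a1 and the T cell gene Cd8a were not, whereas Cd4 lay at 49.5 and 51.7, the T cell gene Cd3e at 26.7 and 36.1 and the B cell gene Cd79a at 4.23 and 3.64. The mast cell protease Cpa3 had intensities of 4325 and 227 (66.5 and 43.8), the widest gap between pools in its list. Of 6 erythroid genes on the array, 3 were measured and 3 were not. Hba-a1, a globin gene, was highest (95.7 and 91.3), and the lowest measured gene had a mean rank of 21.5. Whether blood remained in the tissue was not tested.

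Of 6 glial genes 5 were measured, and Sox10, the factor that defines neural crest glia, lay at 40.6 and 39.5. All 8 neuronal genes were measured, with a median of 33.98. Of 12 nephron and collecting duct genes 6 were not measured, among them Slc34a1, Slc12a1, Slc12a3, Umod and Nphs1, and the rest had a median of 16.4, with Wt1 highest at 40.1 and 49.3.

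Of 7 fat genes, 5 were measured (71.4%), near the 70.3% of all genes. Adipoq, the adipokine that defines fat cells, had intensities of 2639 and 122 (57.1 and 34.7) and Cfd, adipsin, 3942 and 168 (64.8 and 39.3). Fabp4, which capillary endothelium also expresses, lay at 96.4 and 95.3. Ucp1 and Lep were not measured. Skeletal muscle genes had a median of 11.2, with Acta1 alone high at 89.5 and 88.0; the actins share much of their sequence, and cross-binding was not tested.

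Genes listed for tissues that a ureter does not contain were read as a rough guide to the background of this call. That they are silent in the ureter was assumed and not tested. Of the 1335 olfactory and vomeronasal receptor genes, 57 (4.27%) were measured, with a median rank of 8.74 and with Olfr215 (88.5 and 94.2) the highest. Of 32 genes of liver, pancreas, retina, lens and spermatids, 10 were measured (31.2%), and none was in the top decile. The retinal gene Rbp3 (69.4 and 87.2), the elastase Cela1 (63.0 and 54.4) and the liver gene Ttr (51.5 and 36.9) stood highest. The paper lists Ttr among transcripts that passed its filter on control intensity. Whether such probes read expression in the ureter or other signal was not tested, so the call alone did not assign a gene to a tissue.

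Signaling components lay in the middle of the range. Of 120 genes in 7 pathways, 117 were measured and 10 were in the top decile, against 70.3% and 5.17% of all genes. In the SHH pathway, where SMO transduces the signal and PTCH1, HHIP and GLI1 are also targets, all 16 genes were measured. The ligand gene Shh had intensities of 3412 and 706 (62.1 and 63.8), Dhh lay at 34.2 and 29.3, and Ihh was near the bottom at 0.814 and 0.942. Smo was in the top decile at 91.8 and 93.7, with the coreceptor gene Gas1 at 89.3 and 89.9. The other probe of Smo lay at 50.4 and 54.4. Other probes of Gas1 lay at 46.4 and 43.7 and at 23.0 and 22.3. The readouts varied by their brightest probes. Gli1 had intensities of 7771 and 1236 (77.8 and 74.4), Hhip 6693 and 3826 (75.16 and 90.05), and Ptch1 785 and 207 (37.6 and 42.4). The other probe of Gli1 was not measured, that of Hhip lay at 52.0 and 58.6 and that of Ptch1 at 20.8 and 32.8. The order of these genes therefore depended on the probe.

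In the WNT pathway, Wnt4 was the brightest ligand gene (78.9 and 79.9), with Wnt5a at 57.9 and 76.2. The epithelial ligand genes Wnt10a and Wnt7b were at 47.3 and 48.0 and at 41.6 and 45.9, and Wnt9b was not measured. Ctnnb1 (the transducer beta-catenin), the receptor gene Fzd1 and the secreted antagonist gene Sfrp2 were in the top decile. Among targets and feedback inhibitors, Nkd1 lay at 87.1 and 86.2, Notum at 82.2 and 87.5 and Axin2 at 37.0 and 41.8. The other probe of Nkd1 lay at 39.2 and 40.6, and that of Axin2 at 10.8 and 16.5. Porcn, the acyltransferase required for WNT secretion, had the widest gap between pools of this list, at 75.04 and 95.1.

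Bmp4 was the brightest BMP ligand gene, with intensities of 27630 and 3473 (93.4 and 89.2), although its other probe was not measured. Bmp2 lay at 68.1 and 62.7, Bmp5 at 51.2 and 58.6 and Bmp7 at 55.0 and 51.6. The target genes Id2 (96.8 and 96.9) and Id3 (96.2 and 93.6) were in the top decile, and Id1 and Id4 were next to it. Of the extracellular antagonists, Fst lay at 66.0 and 64.1, Nog at 19.6 and 19.1 and Grem1 at 2.42 and 1.58. In the retinoic acid pathway, the retinal reductase gene Dhrs3 was in the top decile (95.7 and 95.4). Of the synthesising enzymes, Aldh1a2 lay at 79.1 and 81.5, Aldh1a3 at 67.8 and 70.0 and Aldh1a1 at 52.9 and 51.1. Rarg had the highest probe rank of the receptor genes (83.8 and 86.7), within 20 points of Rara (74.6 and 76.0). The degrading enzyme Cyp26b1 lay at 42.5 and 55.2, whereas Cyp26a1 and Cyp26c1 were not measured.

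FGF, Notch and TGF-beta components had list medians of 59.2, 62.9 and 74.8. Of these genes 1 was in the top decile, Smad3 (90.1 and 94.3), a transducer of TGF-beta, whose other probe lay at 45.5 and 54.6. Fgfr1 (84.9 and 89.5) headed the FGF list, and the mesenchymal ligand gene Fgf7 lay at 76.9 and 75.8. Hey1 (86.0 and 84.5), a transcriptional target of Notch, headed the Notch list.

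Of 39 Hox genes, which encode the axial position of a tissue, 34 were measured and none was in the top decile. Hoxd8 (82.7 and 81.4), Hoxd4 (83.2 and 78.0) and Hoxa11 (77.3 and 76.2) were brightest. The median over measured genes was 63.3 in the B cluster, 40.5 in the D cluster, 38.7 in the A cluster and 25.5 in the C cluster. Of 10 imprinted or fetal growth genes, H19, Dlk1, Mest and Plagl1 were in the top decile. Igf2, the growth factor gene next to H19, had intensities of 1455 and 316 (46.8 and 49.0) on its only probe.

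All 15 cell division genes were measured, and 2 lay in the top decile, Pcna (93.1 and 92.2) and the replication helicase gene Mcm6 (91.2 and 94.5). Mki67, a marker of cycling cells, had 2 probes at 83.9 and 92.3 and at 82.14 and 91.97. The heat shock genes Hspa8, Hspb1 and Hsp90aa1 were in the top decile, with the immediate early gene Egr1 at 87.5 and 89.4. Of 14 injury and inflammation genes, the chemokine gene Ccl2 (95.5 and 94.9) and the metalloproteinase inhibitor gene Timp1 (94.2 and 90.8) reached it, and the acute phase gene Saa3 lay at 89.2 and 86.3. The cytokine genes Il6 (49.5 and 42.6) and Il1b (23.4 and 26.0) lay lower. Freshly dissected ureters were not analysed here, so the part of culture in these levels was not tested.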

How the data were processed

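RNA of 2 control pools was labelled and hybridised by the authors with the cyclopamine pools to whole mouse genome arrays with 4 spots per 60-base probe. The deposited scanner files hold the authors' intensity per spot and dye; per the file headers, Agilent Feature Extraction 12.2.0.7 subtracted background, removed spatial trends and balanced the dyes by a linear and LOWESS step (the labels give version 10.7.3.1). The deposited flags for background and outliers (other columns) were used as given, and the authors' table of fold changes was not used. Control spots and spots flagged as outliers (1.64% and 1.79%) were dropped, spots averaged as log2, and probes ranked within each array. No spot was saturated. The number of arrays limits the precision, and no contrast or p-value was computed. Names came from RefSeq through the accession for 28328 probes (1359 renamed), else from the array file where RefSeq holds the symbol. The steps were tested on simulated data. Members and the 47 gene lists were chosen with earlier results of these data known. Named are 7 markers, the 30 brightest genes and up to 6 genes per list by the lower rank, with unmeasured members; the other names were chosen after their values were seen. Alternatives changed the background call, outliers, names, signal, probe summary and replicate. Some members of the lists are not reported here by name. Software was Python 3.11.15, pandas 2.3.3, R 4.3.3 and limma 3.58.1 (normexp, offset 50).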

Additional observations from a re-analysis of the deposited data

How the results depend on the processing

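The counts of measured genes (15511 to 18213) and measured probes, the agreement of the pools, the promoter count and the number of list memberships measured stayed within 1.5 times their values under every alternative run. With ranks among all non-control probes, 2059 genes were at or above the 90th percentile on both arrays, and the median range between probes of a gene was 13.0 points, as unmeasured probes fill the lower ranks by construction. A limit at percentile 95 left 440 genes and 124 list memberships. The olfactory and vomeronasal receptors measured were 106 with a call on either array. Without either replicate they ranged from 58 to 105, and the sex chromosome genes from 2 to 4; the latter were 5 with a call on either array and 0 with every spot required, as were the spermatid genes (0). Of 70 marker ranks recomputed, 60 moved by no more than the SD between pools; Krt5 fell to 87.9 with the median over its probes, below the top decile. Of 468 list medians, 342 moved by no more than that SD, and of 470 top-decile counts per list, 47 moved by over 1.5 times. No paired analysis was possible because each array gives 1 control channel and no groups were compared. Dim probes, at a few intensity units on replicate 2, are limited by signal over background: 1928 probes were measured on replicate 1 only and 69 on replicate 2 only.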

Other observations

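The chromosomes differed in the share of their genes that was measured. It ran from 62.8% on chromosome 7 and 63.9% on the X chromosome to 77.1% on chromosome 15, with 2 of 25 genes on the Y chromosome. Chromosome 10 held the highest share of genes in the top decile (7.22%) and chromosome 8 the lowest among the autosomes (3.94%). Probe GC content had the same median (41.7%) in measured and other probes, and its Spearman's rho with rank over the 25688 measured probes was -0.093.

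Transcribed pseudogenes were measured in 134 of 251 cases and other pseudogenes in 47 of 75, of which 28 and 15 were in the top decile. Whether these probes bound transcripts of the parent genes was not tested.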
